A study of Mus musculus with 16 samples.

Results

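Retinoid metabolism was followed in mouse liver through 8 genes: Rbp4, Stra6l, Rdh11, Rdh16, Dhrs3, Aldh1a1, Aldh1a7 and Cyp26a1. They were chosen by name and function, with earlier results of these data known, from the 41585 rows of the count table. All 8 members were in the table and passed the filter on low counts, which kept 13470 genes. The study set livers of hCYP2B6-Tg mice, which carry the human drug- and lipid-metabolising enzyme CYP2B6, against livers of Cyp2b-null mice, which lack Cyp2b genes, to examine the human enzyme in diet-induced obesity. The 16 libraries of RNA from liver fell into 4 groups of 4, namely hCYP2B6-Tg females, Cyp2b-null females, hCYP2B6-Tg males and Cyp2b-null males. All mice were of the C57BL/6 strain and all had eaten a diet with 60% fat for 16 weeks, so no group on a standard diet and no wild-type group was analysed here. The sources used here give neither the age of the mice, the Cyp2b genes deleted, the promoter that drives CYP2B6, nor whether each library came from its own animal. Whether the hCYP2B6-Tg mice also lack mouse Cyp2b genes is not stated here. Summed mouse Cyp2b counts were at most 80 in a library of any group. A p-value here covers only the variation between libraries, which may be technical.

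The liver is the main store of vitamin A. Retinol leaves it bound to a carrier protein in blood, dehydrogenases convert retinol to retinal and back, aldehyde dehydrogenases oxidise retinal to retinoic acid, and CYP26 enzymes clear retinoic acid. Retinoic acid binds RAR and RXR receptors, which raise the transcription of target genes such as Cyp26a1. Hepatocytes make the carrier and many of the enzymes, while stellate cells hold most of the retinyl ester. In whole liver RNA, fewer cells of a type and less RNA per cell cannot be told apart.

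Library totals ran between 5584587 and 9672708 counts, and ribosomal RNA rows took 2.76% to 9.31% of them. Levels are given as CPM (library-scaled counts) after scaling by trimmed mean of M-values, and 3 counts correspond to 0.310 to 0.537 CPM before that scaling. Xist and Ddx3y counts matched the labelled sex in 16 of 16 libraries. Counts summed over the 5 mouse Cyp2b rows were 15 to 44 in hCYP2B6-Tg females against 3 to 9 in Cyp2b-null females, and 7 to 80 in hCYP2B6-Tg males against 1 to 8 in Cyp2b-null males, so the male groups overlapped. All 8 hepatocyte markers were detected in every group. Summed stellate cell markers (10 of 10 detected) gave 478 to 518 CPM (hCYP2B6-Tg) and 475 to 546 CPM (Cyp2b-null) in females, against 402 to 440 CPM in hCYP2B6-Tg males and 371 to 456 CPM in Cyp2b-null males. Summed fat cell markers were 6.62 to 8.05 CPM (hCYP2B6-Tg females), 5.44 to 10.9 CPM (Cyp2b-null females), 16.3 to 71.8 CPM (hCYP2B6-Tg males) and 21.1 to 36.5 CPM (Cyp2b-null males). Adipoq, Lep, Plin1 and Retn were at 0 in hCYP2B6-Tg males, and all 9 markers were detected in Cyp2b-null males. In females, only Lep and Retn were at 0 in hCYP2B6-Tg livers, and Adipoq, Lep, Plin1, Retn and Cidea in Cyp2b-null livers. In library 4 of the hCYP2B6-Tg males, with the highest sum, Cfd had 29.9 CPM and Cidec 25.5 CPM. Library 4 of the Cyp2b-null males had 270 counts of Krt19 and 159 of Ctrb1, against 0 to 8 and 0 in the other male libraries. Its cholangiocyte markers summed to 98.6 CPM, against 20.5 to 39.0 CPM in the other male libraries. Its pancreatic acinar markers summed to 54.4 CPM, against 12.9 to 24.6 CPM. Lymphocyte and erythroid markers (6 of 6 detected) summed to 149 to 249 CPM (hCYP2B6-Tg) and 147 to 220 CPM (Cyp2b-null) in females, against 277 to 362 CPM (hCYP2B6-Tg) and 260 to 357 CPM (Cyp2b-null) in males. Kupffer cell and macrophage markers (7 of 7 detected) summed to 351 to 480 CPM in hCYP2B6-Tg females against 269 to 343 CPM in hCYP2B6-Tg males, and to 333 to 569 CPM in Cyp2b-null females against 239 to 376 CPM in Cyp2b-null males. Hepatocyte markers summed to 128373 to 146549 CPM in hCYP2B6-Tg females against 124965 to 132077 CPM in hCYP2B6-Tg males, and to 129167 to 155723 CPM in Cyp2b-null females against 117735 to 123541 CPM in Cyp2b-null males. The sums of stellate, fat cell and lymphocyte and erythroid markers did not overlap between the sexes in either genotype. Kupffer cell sums did not overlap in hCYP2B6-Tg livers, and hepatocyte sums did not in Cyp2b-null livers. The part of these lists in the sex differences given here was not tested.

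The paralogs Aldh1a1 and Aldh1a7 were lower in females than in males of both genotypes, by log2 differences of -0.83 to -1.11, and Rbp4 was lower in females by -0.25 to -0.34. The Rbp4 call in Cyp2b-null livers was lost in 12 of 17 alternative fits. No member passed the test between genotypes. Between genotypes, the lowest unadjusted edgeR p for a member was that of Stra6l in females (edgeR adjusted p = 0.438). Its 4 hCYP2B6-Tg libraries lay below the 4 Cyp2b-null libraries, as for 1.76% of all tested genes.

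**Figure D1:**
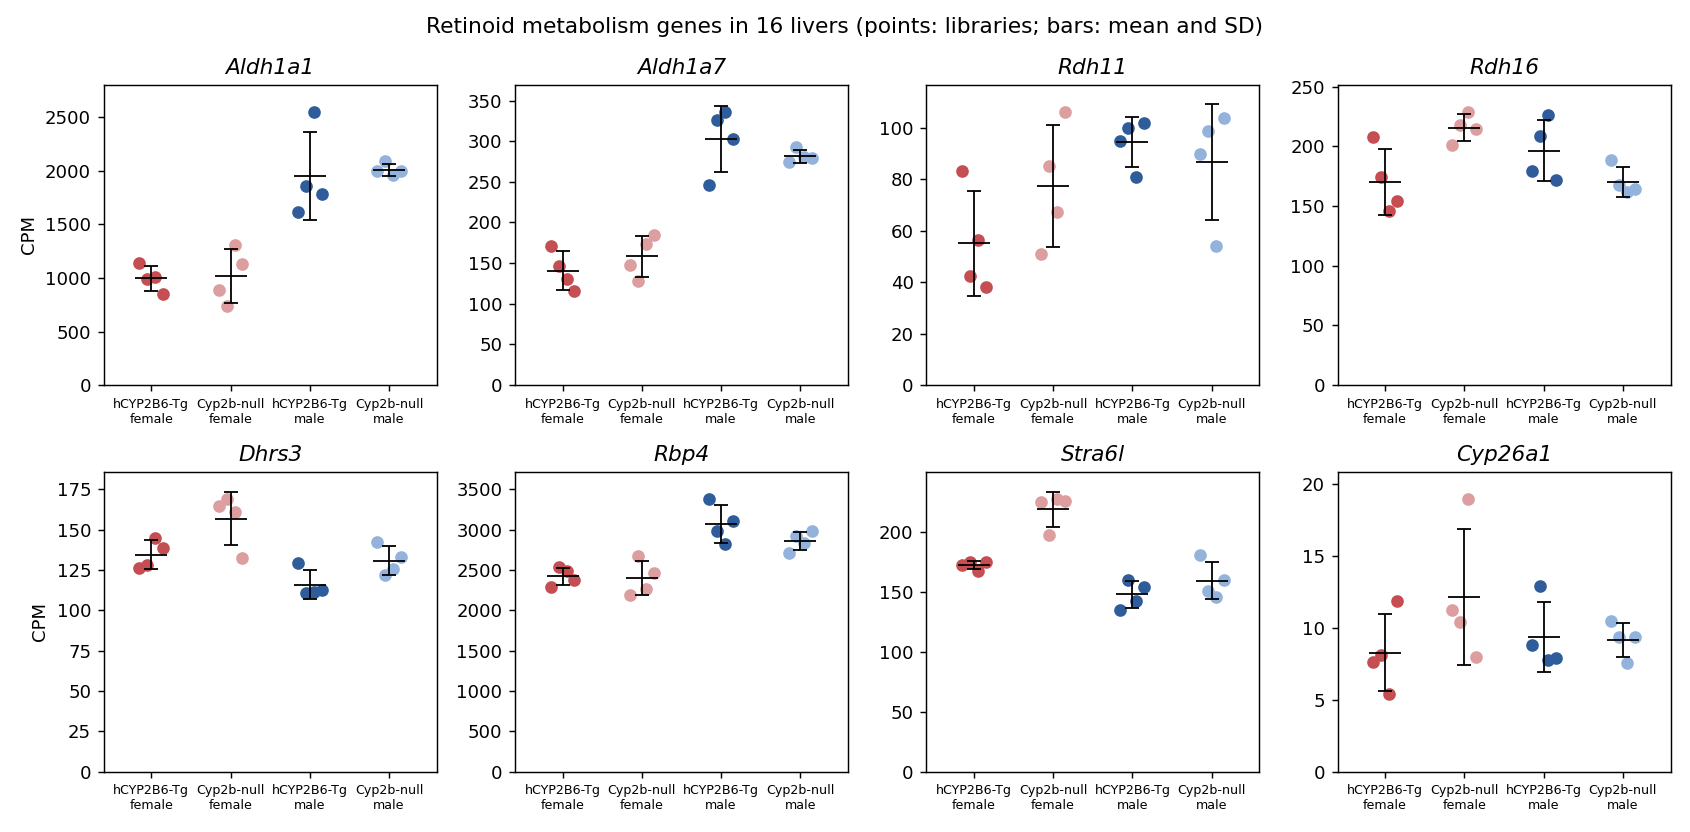
Levels of the 8 members in each of the 16 libraries (points) with the group mean and SD, in CPM, one panel per gene. Aldh1a1 and Aldh1a7 lie lower in both female groups than in both male groups, whereas the genotype groups within a sex mostly overlap.

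Per kilobase of exon, the order of mean levels began with Rbp4, Aldh1a1, Aldh1a7, Dhrs3 and Rdh16 in every group, and no library of one of these genes reached the range of the next. Rbp4 had 1803, 1786, 2288 and 2131 CPM per kb in hCYP2B6-Tg females, Cyp2b-null females, hCYP2B6-Tg males and Cyp2b-null males, against 202, 206, 396 and 408 for Aldh1a1. Cyp26a1 was lowest, at 4.17, 6.13, 4.72 and 4.62 CPM per kb in the same groups. Rdh11 and Stra6l lay between. Their libraries overlapped in both female groups and in Cyp2b-null males, and Rdh16 and Rdh11 overlapped in both male groups. The annotated exons of Aldh1a1 add up to 4937 bases, more than the 2053 bases of its main transcript, so its value per kb is a low estimate. All lengths used were sums of annotated exons, so the order depends on them. They were 2927 bases for Dhrs3, 3455 for Rdh11, 6217 for Rdh16 and 9567 for Stra6l. Before division by length, the mean of Rdh16 was above that of Dhrs3 in every group. In the same order of groups, Rdh16 had 170, 216, 196 and 170 CPM, and Dhrs3 had 135, 157, 116 and 131 CPM.

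Rbp4 (chromosome 19, 38116620–38125321, minus strand, GRCm38.p6) encodes the blood carrier of retinol. It had 2291, 2533, 2484 and 2376 CPM in the hCYP2B6-Tg female libraries, against 2195, 2669, 2267 and 2463 CPM in the Cyp2b-null female libraries. It had 3379, 2982, 2827 and 3101 CPM in the hCYP2B6-Tg male libraries, against 2713, 2918, 2838 and 2977 CPM in the Cyp2b-null male libraries. Every female library was below every male library of its genotype, as for 8.20% of all tested genes in hCYP2B6-Tg and 6.64% in Cyp2b-null livers, and the genotypes overlapped within each sex. The log2 difference between females and males was -0.34 ± 0.08 (SE, n = 4 each) in hCYP2B6-Tg livers (edgeR quasi-likelihood test with Benjamini-Hochberg adjustment, adjusted p = 0.00443) and -0.25 ± 0.08 in Cyp2b-null livers (edgeR adjusted p = 0.0434). The Cyp2b-null value lost its call in 12 of 17 alternatives, among them the fits without Cyp2b-null female libraries 1, 4 or 5 (adjusted p = 0.139, 0.133 and 0.0656) and without Cyp2b-null male libraries 1, 2, 3 or 4 (0.0534, 0.108, 0.0875 and 0.128). The genotype difference was 0.01 in females (95% interval -0.15 to 0.17).

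Stra6l (chromosome 4, 45824293–45887010, plus strand) encodes a membrane receptor for retinol bound to RBP4 that is related to STRA6. It had 172, 175, 167 and 175 CPM in the hCYP2B6-Tg female libraries, against 225, 197, 227 and 226 CPM in the Cyp2b-null female libraries. In males it had 135, 160, 143 and 154 CPM in hCYP2B6-Tg libraries, against 181, 151, 146 and 160 CPM in Cyp2b-null libraries. The hCYP2B6-Tg female libraries all lay below the Cyp2b-null female libraries, which held for 1.76% of all tested genes (237 of 13470), and the male genotypes overlapped. In females the log2 genotype difference was -0.35 ± 0.08 (SE, 95% interval -0.51 to -0.18), with an edgeR unadjusted p of 0.000293 and an adjusted p of 0.438, ranked 9 of all genes. DESeq2 gave it an adjusted p of 0.0344 in females. In males it was -0.11 (edgeR adjusted p = 0.859), and the test of the difference between the sexes gave -0.24 ± 0.12 (edgeR adjusted p = 0.658). Between females and males it was higher by 0.46 ± 0.08 in Cyp2b-null livers (edgeR adjusted p = 0.000486). In hCYP2B6-Tg livers the estimate was 0.22 ± 0.08 (edgeR adjusted p = 0.0956), and it passed with library totals in place of scaling (adjusted p = 0.0372).

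Rdh16 (chromosome 10, 127801090–127815846, plus strand) encodes a short-chain dehydrogenase that oxidises retinols and hydroxysteroids. It had 208, 174, 146 and 154 CPM in the hCYP2B6-Tg female libraries, against 201, 218, 229 and 215 CPM in the Cyp2b-null female libraries. In males it had 179, 208, 226 and 172 CPM in hCYP2B6-Tg libraries, against 189, 167, 162 and 164 CPM in Cyp2b-null libraries. Library 1 of the hCYP2B6-Tg females lay within the Cyp2b-null female range, and the other 3 lay below it. The log2 genotype difference was -0.34 ± 0.10 in females (SE, edgeR unadjusted p = 0.00297, adjusted p = 0.481) and 0.21 ± 0.10 in males (edgeR adjusted p = 0.722). The difference between these was -0.55 ± 0.15 (95% interval -0.85 to -0.25, edgeR adjusted p = 0.315), and among the alternatives run it passed only with no filter on low counts (0.0225) and without library 1 of the hCYP2B6-Tg females (0.0473). In Cyp2b-null livers Rdh16 was higher in females by 0.34 ± 0.10 (edgeR adjusted p = 0.0420), a call lost without Cyp2b-null female libraries 3, 4 or 5 (adjusted p = 0.0734, 0.114 and 0.0735) and without Cyp2b-null male libraries 2, 3 or 4 (0.0992, 0.116 and 0.106). In hCYP2B6-Tg livers the estimate was -0.20 (edgeR adjusted p = 0.237), and without library 1 of the females it was -0.32 (0.0479). Of the 50-base windows of its transcripts, 14.0% also occur in other genes, among them Rdh1, Rdh7, Rdh9, Rdh19 and the overlapping pseudogene Rdh18-ps, so its counts are uncertain as those of a single gene.

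Dhrs3 (chromosome 4, 144892534–144928209, plus strand) encodes a retinal reductase that is induced by retinoic acid. It had 126, 128, 145 and 139 CPM in the hCYP2B6-Tg female libraries, against 165, 169, 161 and 132 CPM in the Cyp2b-null female libraries. In males it had 129, 111, 112 and 113 CPM in hCYP2B6-Tg libraries, against 142, 122, 126 and 133 CPM in Cyp2b-null libraries. The genotypes overlapped in each sex through 1 library, of the Cyp2b-null females and of the hCYP2B6-Tg males. The log2 genotype difference was -0.22 ± 0.09 in females (SE, edgeR adjusted p = 0.610) and -0.17 ± 0.09 in males (edgeR adjusted p = 0.728), and their average was -0.20 ± 0.06 (edgeR unadjusted p = 0.00403, adjusted p = 0.460). Between females and males the estimate was 0.21 in hCYP2B6-Tg livers (edgeR adjusted p = 0.132) and 0.26 ± 0.09 in Cyp2b-null livers (edgeR adjusted p = 0.0706), which passed without library 5 of the females (0.34, adjusted p = 0.0150).

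Rdh11 (chromosome 12, 79174233–79191855, minus strand) encodes a further retinal reductase. It averaged 55.0 ± 20.3 CPM (hCYP2B6-Tg) against 77.4 ± 23.7 CPM (Cyp2b-null) in females, and 94.5 ± 9.55 CPM (hCYP2B6-Tg) against 86.7 ± 22.5 CPM (Cyp2b-null) in males (SD, n = 4 each). The female libraries ran from 38.2 to 83.2 CPM in hCYP2B6-Tg livers and from 51.0 to 106 CPM in Cyp2b-null livers. The spread between libraries was wide in 3 of the 4 groups, and the genotypes overlapped in both sexes. The log2 genotype difference in females was -0.50 ± 0.28 (SE, edgeR adjusted p = 0.754). Between females and males it was -0.78 ± 0.28 in hCYP2B6-Tg livers (edgeR adjusted p = 0.109), and this estimate passed with limma voom (0.0226), with DESeq2 (0.0467) and without library 1 of the hCYP2B6-Tg females (-1.06, adjusted p = 0.0270).

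**Figure D2:**
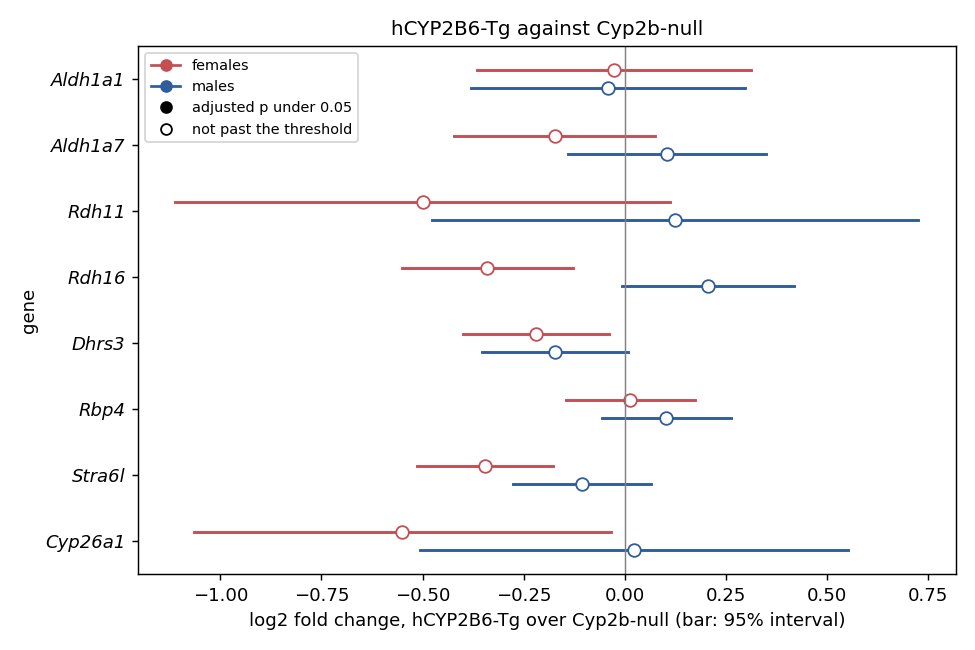
Log2 difference of hCYP2B6-Tg over Cyp2b-null livers for the 8 members, in females and in males, with 95% intervals from the edgeR fit. Stra6l and Rdh16 lie at -0.35 and -0.34 in females and at -0.11 and 0.21 in males, and no member passed the adjusted threshold.

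Aldh1a1 (chromosome 19, 20492583–20643463, plus strand) encodes a cytosolic aldehyde dehydrogenase that oxidises retinal to retinoic acid, and Aldh1a7 (chromosome 19, 20692953–20727556, minus strand) is its neighbouring close copy in mouse. The main transcripts share 1846 of 2042 aligned bases (90.4%), and the window of 250 bases before the Aldh1a7 start shares 186 of 205 aligned bases (90.7%) with that of start 2 of Aldh1a1 and 151 of 196 (77.0%) with that of start 1. The 150 bases before each start are shown because both genes moved together. For Aldh1a1 this is start 2, inside the annotated gene, chosen because it is the more similar. The start used in these livers, and any part of these bases in the shared change, was not tested. Each sequence is from RefSeq (GRCm38.p6) and written 5′ to 3′ on the strand of its gene, with capitals for the longest run that both share.
Aldh1a1, chr19:20601818-20601967, plus strand: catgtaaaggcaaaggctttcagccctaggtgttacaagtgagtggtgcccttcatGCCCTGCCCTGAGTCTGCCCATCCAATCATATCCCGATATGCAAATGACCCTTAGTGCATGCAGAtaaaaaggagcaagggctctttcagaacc
Aldh1a7, chr19:20727557-20727706, minus strand: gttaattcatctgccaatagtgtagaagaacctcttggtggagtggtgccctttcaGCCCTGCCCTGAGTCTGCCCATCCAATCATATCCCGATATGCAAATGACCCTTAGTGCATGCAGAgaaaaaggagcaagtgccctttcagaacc
The shared run has 65 bases and covers positions -94 to -30 from each start.

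Aldh1a1 had 1135, 993, 1011 and 849 CPM in the hCYP2B6-Tg female libraries, against 1621, 1862, 2548 and 1785 CPM in the hCYP2B6-Tg male libraries. It had 889, 737, 1304 and 1135 CPM in the Cyp2b-null female libraries, against 2000, 2093, 1960 and 1995 CPM in the Cyp2b-null male libraries. Each female library lay below each male library in both genotypes, as for 8.20% of all tested genes in hCYP2B6-Tg and 6.64% in Cyp2b-null livers. Aldh1a7 had 171, 146, 130 and 115 CPM in the hCYP2B6-Tg female libraries, against 246, 327, 336 and 302 CPM in the hCYP2B6-Tg male libraries. It had 148, 129, 173 and 184 CPM in the Cyp2b-null female libraries, against 274, 293, 281 and 279 CPM in the Cyp2b-null male libraries. Its female libraries likewise all lay below the male libraries. It averaged 141 ± 23.9 CPM in hCYP2B6-Tg females against 303 ± 40.2 CPM in hCYP2B6-Tg males, and 158 ± 25.2 CPM in Cyp2b-null females against 282 ± 8.02 CPM in Cyp2b-null males (SD, n = 4 each).

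The log2 difference of Aldh1a1 between females and males was -0.97 ± 0.16 in hCYP2B6-Tg livers (SE, edgeR adjusted p = 0.00081) and -0.98 ± 0.16 in Cyp2b-null livers (edgeR adjusted p = 0.00075). Aldh1a7 differed by -1.11 ± 0.12 (edgeR adjusted p = 1.05e-06) in hCYP2B6-Tg livers and by -0.83 ± 0.12 (edgeR adjusted p = 4.89e-05) in Cyp2b-null livers. Because 7.49% of the 50-base windows of Aldh1a7 occur in Aldh1a1, the split of reads between them is uncertain. With both rows added together, a choice made after the data were seen, the sex difference was -0.99 ± 0.15 in hCYP2B6-Tg and -0.96 ± 0.15 in Cyp2b-null livers (edgeR adjusted p = 0.000327 and 0.00047). The ratio of Aldh1a1 to Aldh1a7 counts was 5.70 to 7.76 across libraries. Between genotypes Aldh1a1 differed by -0.03 ± 0.16 in females (95% interval -0.37 to 0.31) and by -0.04 in males. The annotated Aldh1a1 gene overlaps C730002L08Rik and Gm6684 on the other strand, and no source used here states whether counting used strand.

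**Figure D3:**
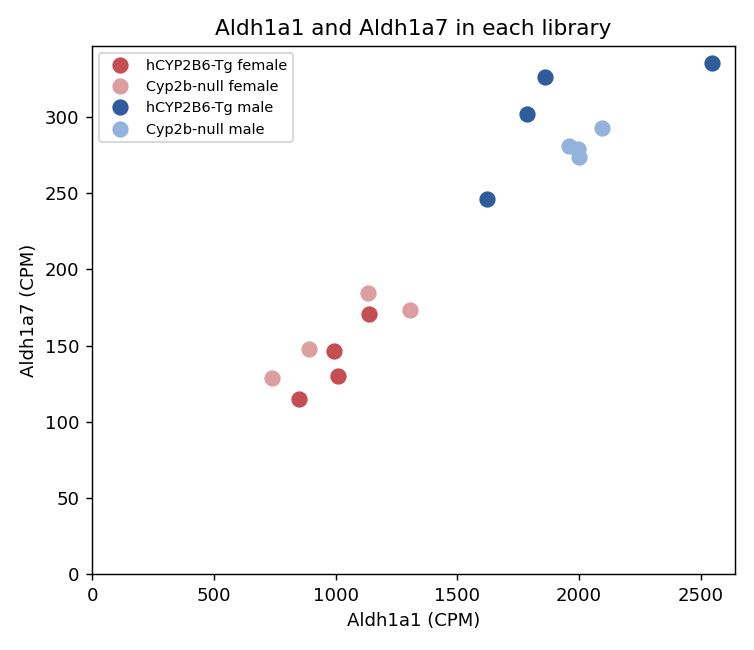
Aldh1a7 against Aldh1a1 in the 16 libraries, in CPM, with colours for the 4 groups. The 8 female libraries lie at lower values of both genes than the 8 male libraries.

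Over the 16 libraries, after removal of the group means, the log2 CPM of Aldh1a1 and Aldh1a7 had a Pearson r of 0.83 (permutation within groups, two-sided p = 0.0032, 0.0096 adjusted over 3 pairs) and a Spearman rho of 0.80 (permutation p = 0.00816, adjusted 0.0245). Without the 2 libraries farthest from the median of Aldh1a1, r was 0.80 (permutation p = 0.00564). For Cyp26a1 and Dhrs3, r was 0.22 (permutation p = 0.504, adjusted 0.756) and rho 0.11 (permutation p = 0.709), with r 0.15 without the 2 farthest libraries. For Cyp26a1 and Aldh1a1, r was 0.018 (permutation p = 0.964) and rho -0.10 (permutation p = 0.744). Aldh1a1 and Aldh1a7 share the sequence windows given above, and their part in this relation was not tested.

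Genes with predicted or clone names were left out of the search for similar profiles. Among the rest, the genes with profiles most like Aldh1a1 were Aldh1a7, Car3, which encodes a carbonic anhydrase, and Tmem19. Their root mean square differences were 0.15, 0.20 and 0.20 between centred log2 CPM profiles over 16 libraries. The median over all other tested genes was 0.60. For Aldh1a7 the most similar genes were Aldh1a1 (0.15), Tmem19 (0.18) and Car3 (0.18). Each profile was centred on its mean over the 16 libraries with group means kept, so differences between the sexes are part of the match.

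Cyp26a1 (chromosome 19, 37697738–37701536, plus strand) encodes the enzyme that hydroxylates retinoic acid and is a textbook target of RAR. A stretch of 30 bases before a start in the RefSeq promoter table (GRCm38.p6), inside the annotated gene span, is shown because it holds the motif searched, in capitals.
Cyp26a1, chr19:37697770-37697799, plus strand: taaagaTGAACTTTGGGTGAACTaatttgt
Read on the minus strand, the capitals match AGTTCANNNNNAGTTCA, a direct repeat spaced by 5 bases as RAR and RXR bind it, at positions -32 to -16. Both strands were searched in 32851 promoter windows of 250 bases, and 7 of them (0.0213%) held this motif. Of the windows of the 8 members, the Cyp26a1 window alone held it. The letters were fixed in advance to this spelling, and Cyp26a1 was already known as a RAR target. Its match and the share of windows therefore test nothing. A looser form of this repeat, named DR5, was found in 29 windows (0.0883%), and again in Cyp26a1 alone among the members. The motif TTCNNNGAA, which STAT factors bind, was in 7.02% of all windows and among the members in Rdh16 alone. A match is a description of the letters.

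Cyp26a1 had 7.65, 8.13, 5.44 and 11.9 CPM in the hCYP2B6-Tg female libraries, against 11.2, 10.4, 19.0 and 8.0 CPM in the Cyp2b-null female libraries. The male libraries had 8.84, 12.9, 7.75 and 7.94 CPM in hCYP2B6-Tg livers, against 10.4, 9.33, 7.56 and 9.33 CPM in Cyp2b-null livers. The genotypes overlapped in both sexes, and the highest value was that of library 4 of the Cyp2b-null females. The log2 genotype difference in females was -0.55 ± 0.25 (SE, 95% interval -1.06 to -0.03, edgeR adjusted p = 0.656), with a range of -0.77 to -0.23 as single libraries were left out. In males it was 0.02. The sex differences were -0.16 in hCYP2B6-Tg (edgeR adjusted p = 0.777) and 0.42 in Cyp2b-null livers (edgeR adjusted p = 0.381).

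Counted together, 0 of 8 members passed the edgeR quasi-likelihood test at an adjusted p of 0.05 between genotypes in females, where 0% of all genes did, and 0 of 8 in males, where 0.126% did. At an unadjusted p under 0.05 the members numbered 4 in females, against 7.27% of all genes, and 0 in males, against 7.01%. Because the members were chosen with earlier results of these data known, the counts and medians in this paragraph are descriptions. DESeq2 called 1 member in females, where it called 12 of 13466 genes in all, and 0 in males, where it called 47 of 8769. Limma voom called 0 members in both. In females 7 of 8 estimates were below 0 with a median of -0.28, against 49.6% of all genes and a median of 0.00. In males 3 of 8 were below 0 (51.0% of all genes) with a median of 0.06. Averaged over the sexes, 0 of 8 passed, against 0.0148% of all genes, with 2 of 8 at an unadjusted p under 0.05 (6.81% of all genes), 1 called by DESeq2 and 0 by limma voom. For the difference between the sexes, 0 of 8 passed, against 0.0371%, with 2 at an unadjusted p under 0.05 (7.55% of all genes) and 0 by either other tool.

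Between females and males, 3 of 8 members passed in hCYP2B6-Tg livers, where 10.0% of all genes did, and all 3 were lower in females (5.49% of all genes were lower and 4.54% higher). In Cyp2b-null livers 5 of 8 passed, where 7.42% did, with 2 higher (3.50% of all genes) and 3 lower (3.93%). With a single library left out, the hCYP2B6-Tg count was 5 without library 1 of the females and 3 in the other fits. The Cyp2b-null count was 3 without library 4 of the females or without library 2, 3 or 4 of the males, and 4 in the other fits. Aldh1a1, Aldh1a7 and Rbp4 were lower in females of both genotypes, as were 2.50% of all genes, but the Rbp4 call in Cyp2b-null livers was lost in 12 of 17 alternatives. These counts too are descriptions, as the members were chosen with earlier results of these data known.

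**Figure D4:**
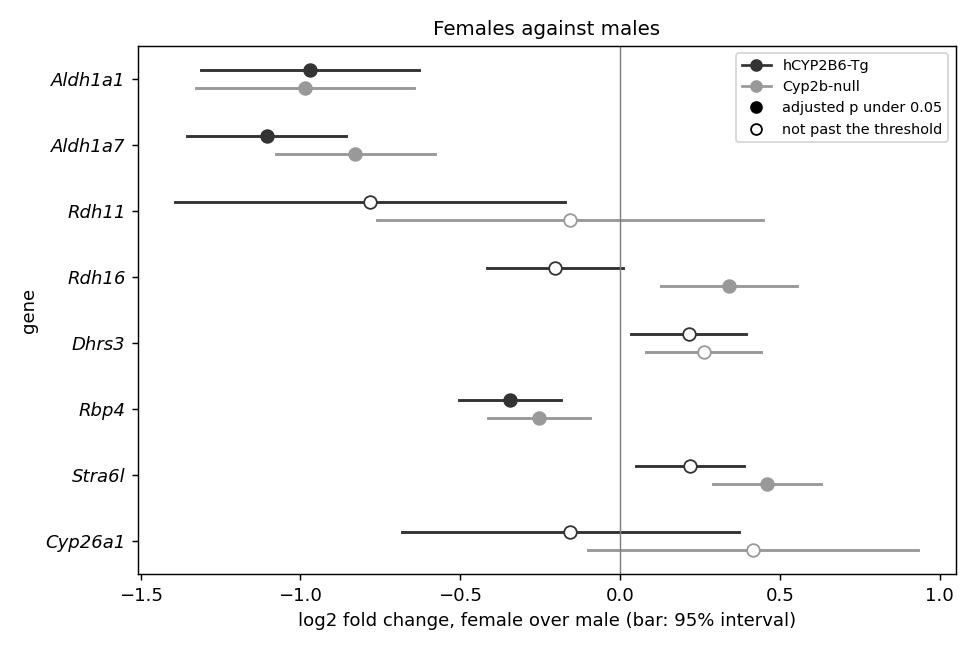
Log2 difference of females over males for the 8 members, in hCYP2B6-Tg and Cyp2b-null livers, with 95% intervals from the edgeR fit. Aldh1a1 and Aldh1a7 lie between -0.83 and -1.11 in both genotypes, whereas Stra6l lies at 0.22 and 0.46.

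The other genes of the pathway, in 5 lists, numbered 67, of which 65 were in the table and 49 were tested. None of the 49 passed between genotypes in the edgeR quasi-likelihood test in females, in males, averaged over the sexes, or for the difference between the sexes, nor with DESeq2 or limma voom. An unadjusted p under 0.05 was found for 6 of the 49 in females (7.27% of all genes), 3 in males (7.01%), 1 on average (6.81%) and 12 for the difference (7.55%). The smallest genotype p in males belonged to the alcohol dehydrogenase gene Adh4, at -0.38 ± 0.10 (edgeR adjusted p = 0.254). The smallest p of single lists in females gave log2 differences of -0.20 for Ttr, -0.34 for Dgat1, 0.22 for Aox3 and 0.22 for Adh4. In the other lists in males these were -0.23 for Rxra, 0.24 for Ces1d, -0.21 for Lrp1 and -0.09 for Aox3. On average over the sexes they were -0.43 for Rarg, -0.43 for Rdh18-ps, 0.30 for Lipe and 0.06 for Aox3.

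Between females and males, where each gene given as higher or lower passed the edgeR test at an adjusted p of 0.05, 5 of the 49 were higher and 8 lower in hCYP2B6-Tg females, and 7 were higher and 7 lower in Cyp2b-null females. Of all tested genes, 4.54% were higher and 5.49% lower in hCYP2B6-Tg females, and 3.50% and 3.93% in Cyp2b-null females. The same shares stand beside the counts of the single lists below. The list of other retinol and retinal dehydrogenases and reductases held 16 tested genes, among them Retsat and the pseudogene Rdh18-ps. Of these, 1 was higher and 3 lower in hCYP2B6-Tg, and 4 higher and 2 lower in Cyp2b-null females. Adh4, which oxidises retinol, was lower in females of both genotypes, at 95.02 ± 6.61 CPM in hCYP2B6-Tg females against 175 ± 11.8 CPM in hCYP2B6-Tg males, and at 81.7 ± 6.29 CPM in Cyp2b-null females against 228 ± 45.7 CPM in Cyp2b-null males (SD, n = 4 each). Its log2 differences were -0.88 (edgeR adjusted p = 2.14e-06) and -1.48 (4.00e-10). Adh5 was lower too, with log2 differences of -0.33 in hCYP2B6-Tg and -0.38 in Cyp2b-null females, and Rdh9 was higher by 0.49 in hCYP2B6-Tg and 0.46 in Cyp2b-null females. Dhrs7 (0.67) and Adh1 (0.30) were higher in Cyp2b-null females.

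Of 4 other enzymes that oxidise retinal or clear retinoic acid, 2 were lower in females of both genotypes, as were 2.50% of all genes. Both were aldehyde oxidases. Aox3 had 323 CPM in hCYP2B6-Tg females against 690 CPM in hCYP2B6-Tg males, and 278 CPM in Cyp2b-null females against 736 CPM in Cyp2b-null males, with log2 differences of -1.09 (edgeR adjusted p = 5.55e-08) and -1.40 (6.76e-10). Aox1 differed by -0.73 in hCYP2B6-Tg and -0.94 in Cyp2b-null livers. Of 14 genes of ester storage and carotenoid cleavage, 1 was higher and 2 lower in hCYP2B6-Tg, and 2 higher and 2 lower in Cyp2b-null females. Lipc, which encodes hepatic lipase, was higher by 0.69 in hCYP2B6-Tg and 0.53 in Cyp2b-null females, and the carboxylesterase gene Ces1f was lower, at -0.44 in hCYP2B6-Tg and -0.38 in Cyp2b-null females. Ces1e was lower in hCYP2B6-Tg females (-0.57). In Cyp2b-null livers Pnpla2 was lower in females (-0.42), and Pnpla3, a lipase gene of fat and retinyl ester, had 13.9 ± 7.48 CPM in females against 1.59 ± 0.887 CPM in males (log2 difference 3.16 ± 0.72, edgeR adjusted p = 0.0163).

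Of 5 other binding and transport genes, Scarb1 (0.30) and Lrp1 (0.35) were higher and Ttr (-0.33) lower in hCYP2B6-Tg females, and 0 of 5 passed in Cyp2b-null females, with 1 at an unadjusted p under 0.05. TTR is the blood partner of RBP4. Of the receptor genes, Rxrg (0.71) was higher and Rxra (-0.30) lower in Cyp2b-null females.

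**Figure D5:**
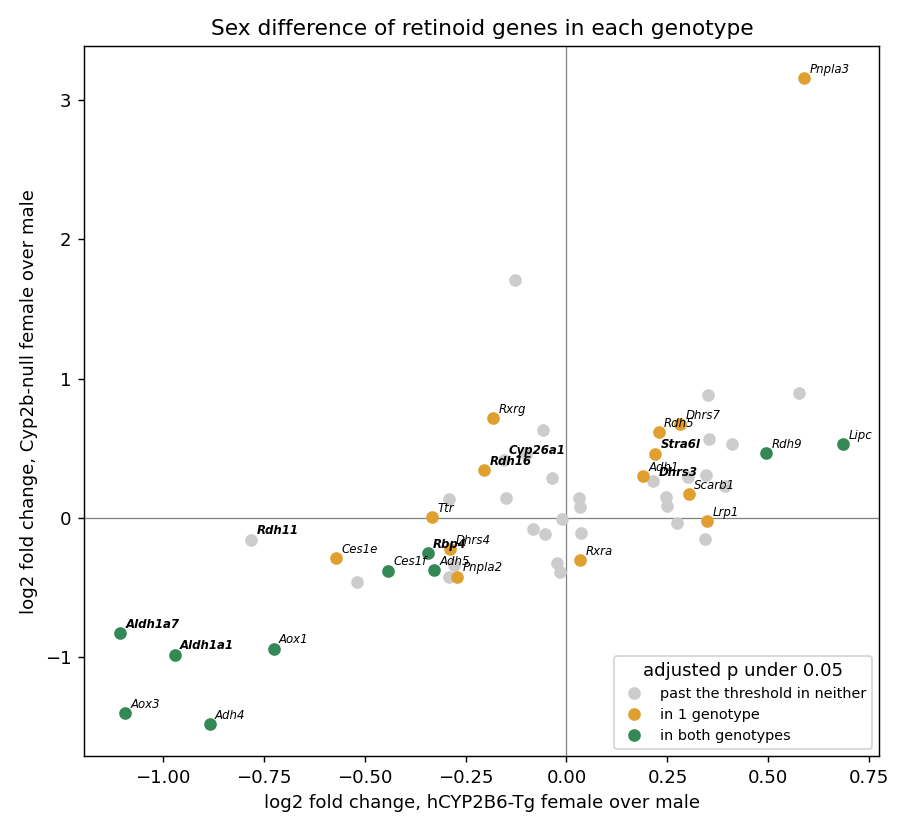
Log2 female over male difference in hCYP2B6-Tg livers against that in Cyp2b-null livers, for the 8 members and other tested retinoid genes. Adh4, Aox3, Aldh1a1 and Aldh1a7 lie at -0.83 or below on both axes.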

How the data were processed

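Liver RNA was sequenced in 16 libraries, per the labels, and the authors deposited raw counts per gene. Per the submitters' processing notes, FastQC, Trimmomatic, GSNAP, Subread and edgeR were used with build GRCm38.p6. No source used here gives versions, annotation or strand setting. Counts shared between close copies or overlapping genes can be lost or misassigned.

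The deposited counts were fitted with edgeR 4.0.16 in R 4.3.3: filterByExpr (13470 genes kept), trimmed mean of M-values scaling, robust quasi-likelihood fit of 4 groups, Benjamini-Hochberg adjustment over all tested genes, threshold 0.05. Alternatives used limma 3.58.1, DESeq2 1.42.0, other scaling and filters, a replicate block and single libraries left out. The scripts were tested on simulated data. Sequences came from RefSeq (GRCm38.p6).

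Named genes were all members and, from the other lists, those past the threshold between genotypes or, failing that, the smallest p, and up to 2 per direction in each sex contrast. Members and lists were chosen with earlier results of these data known, so the counts are descriptions. The depth of 5584587 to 9672708 counts limits precision for low genes such as Cyp26a1. Some results are not reported here.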

Additional observations from a re-analysis of the deposited data

Results flagged for a closer look

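In 32 sets of 4 libraries (8 members in 4 groups), 2 had one library far from the other 3, and chance gives about 1 in 20. Dhrs3 in hCYP2B6-Tg males had its highest value, 129 CPM, in library 2, with the other 3 between 111 and 113 CPM. Stra6l in Cyp2b-null females had its lowest value, 197 CPM, in library 3, with the other 3 between 225 and 227 CPM.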

How the results depend on the processing

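Of 944 recomputed member values, 887 kept their direction and side of the threshold, 18 lost a call, 10 gained one and 29 changed sign. The estimates that changed sign were at most 0.165 in size with adjusted p of at least 0.904. The sex calls of Aldh1a1 and Aldh1a7 in both genotypes, of Rbp4 in hCYP2B6-Tg and of Stra6l in Cyp2b-null livers held in 17 of 17 alternatives. The number of members called changed from 0 to 1 with DESeq2 in females and averaged over sexes (Stra6l, adjusted p = 0.0344 and 0.0455), and from 0 to 1 with no filter for the difference between sexes (Rdh16). With single libraries left out it was 3 to 5 in hCYP2B6-Tg, 3 to 4 in Cyp2b-null and 0 to 1 for the difference between sexes. An alternative chosen after seeing the data left out Cyp2b-null female libraries 1 and 3 together, the farthest apart on the second principal component. Another, also chosen after seeing the data, left out library 4 of both male groups. That of the hCYP2B6-Tg males had the highest fat cell sum, and that of the Cyp2b-null males the highest duct and pancreas sums. In either alternative, 0 members were called between genotypes. The Rbp4 call in Cyp2b-null livers was lost in 12 of 17 alternatives (adjusted p 0.0518 to 0.139). Over all genes the genotype count in females was 0, against 12 with no filter, 12 with DESeq2 and 0 to 3 with single libraries left out. In males it was 17, against 62 with no filter, 47 with DESeq2, 6 with limma voom, 2 to 8 with single libraries left out and 0 without both libraries numbered 4. Averaged over sexes it was 2, against 34 with no filter, 31 with DESeq2, 0 with limma voom and 0 to 4 with single libraries left out. For the difference between sexes it was 5, against 36 with no filter, 16 with DESeq2 and 0 to 19 with single libraries left out. The r of Cyp26a1 and Aldh1a1 was -0.21 without 2 libraries. Cyp26a1 in males was -0.0040 with library totals and -0.0099 with limma voom, and the Aldh1a1 difference between sexes was -0.018 with no filter. With single libraries left out, Aldh1a1 ranged from -0.16 to 0.12 in females, -0.19 to 0.042 in males, -0.11 to 0.040 averaged and -0.11 to 0.16 between sexes. Aldh1a7 ranged from -0.085 to 0.010 averaged, Rbp4 from -0.033 to 0.067 in females, Rdh11 from -0.044 to 0.23 in males and -0.35 to 0.00051 by sex in Cyp2b-null, Dhrs3 from -0.13 to 0.0021 between sexes, and Cyp26a1 from -0.16 to 0.11 in males and -0.38 to 0.029 by sex in hCYP2B6-Tg livers. The cause was not tested. Same-numbered libraries did not deviate together (correlations -0.107 to 0.122). With the replicate number as a block, 0 members were called in each genotype contrast, 3 by sex in hCYP2B6-Tg and 4 in Cyp2b-null livers, and over all genes 5 in males and 11 for the difference between sexes.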

Other observations

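Several retinoid genes known from other tissues were at or near 0 in these livers. Stra6, Crabp1, Rbp3, Rpe65, Sdr16c5 and Sdr16c6 had 0 counts in the 16 libraries together. Aldh1a2 and Aldh1a3, which encode further aldehyde dehydrogenases that oxidise retinal, had 9 and 42 counts in all. Cyp26c1 had 62 counts, with 7 in hCYP2B6-Tg females, 28 in Cyp2b-null females, 15 in hCYP2B6-Tg males and 12 in Cyp2b-null males, and 19 in 1 library.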
